A study of Homo sapiens with 12 samples.

Results

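The 9 genes described here belong to the immediate-early class: the AP-1 subunits FOS, FOSB, FOSL1, JUN and JUNB, the related factor ATF3, the zinc finger factor EGR1, the survival gene IER3 and the phosphatase gene DUSP2. They were taken by symbol, each represented by the transcript cluster whose mean over the 12 arrays was highest, and are 9 of the 14884 symbols with a cluster. Each had a mean above 4.61 on the log2 scale, the 40th percentile used as a filter on low values, so all 9 are among the 8930 genes tested. RNA was measured on Affymetrix whole-transcript arrays from AGS, MKN1 and SNU601, established cell lines of gastric cancer. The cells of each were exposed to Rhosin, a small molecule that inhibits the GTPase RHOA, to JK136, to JK139 or to the solvent DMSO. JK136 and JK139 are known here by code name alone, and no genotype, dose or exposure time was given in the labels. All cultures grew in RPMI medium with fetal calf serum, also those with DMSO. Each of the 12 combinations of line and treatment had 1 array, so the 3 lines are the replicates of a treatment and no line has a replicate of its own.

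Immediate-early genes are transcribed within minutes of a growth factor, serum or stress signal, without the need for new protein. FOS proteins pair with JUN proteins to form AP-1, which binds DNA at growth and invasion genes, while EGR1 binds GC-rich promoter sites. Their promoters are reached by mitogen-activated protein (MAP) kinases through serum response factor (SRF) and its ternary complex partners, and SRF can also be reached by RHOA through actin and its cofactors MRTFA and MRTFB. IER3 modulates cell survival and ERK signalling, and DUSP2 is a nuclear phosphatase that removes phosphate from MAP kinases.

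The promoters of EGR1, FOS, JUNB, DUSP2 and JUN are printed because the first 4 of these genes had the largest differences between JK136 and Rhosin and JUN a small one. Each window holds the 250 bases before the RefSeq start site on GRCh38.p14, read 5′ to 3′ on the strand of the gene. The windows are chr5:138465229-138465478 (plus strand) for EGR1, chr14:75278578-75278827 (plus strand) for FOS, chr19:12791236-12791485 (plus strand) for JUNB, chr2:96145441-96145690 (minus strand) for DUSP2 and chr1:58784048-58784297 (minus strand) for JUN. Capitals mark matches to the motifs searched.
EGR1: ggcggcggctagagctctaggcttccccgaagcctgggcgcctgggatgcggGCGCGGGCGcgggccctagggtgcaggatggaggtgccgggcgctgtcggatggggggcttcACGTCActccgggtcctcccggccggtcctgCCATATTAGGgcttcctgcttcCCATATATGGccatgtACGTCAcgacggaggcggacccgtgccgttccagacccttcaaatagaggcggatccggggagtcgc
FOS: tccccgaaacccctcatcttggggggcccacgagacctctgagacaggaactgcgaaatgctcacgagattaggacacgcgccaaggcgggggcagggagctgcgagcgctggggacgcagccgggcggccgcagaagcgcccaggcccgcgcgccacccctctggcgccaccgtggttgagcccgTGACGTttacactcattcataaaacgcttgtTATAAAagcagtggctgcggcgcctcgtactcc
JUNB: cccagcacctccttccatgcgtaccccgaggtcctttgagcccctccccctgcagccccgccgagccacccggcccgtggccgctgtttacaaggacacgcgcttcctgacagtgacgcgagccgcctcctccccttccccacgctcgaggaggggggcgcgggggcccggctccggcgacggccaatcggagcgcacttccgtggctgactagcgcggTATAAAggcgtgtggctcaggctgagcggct
DUSP2: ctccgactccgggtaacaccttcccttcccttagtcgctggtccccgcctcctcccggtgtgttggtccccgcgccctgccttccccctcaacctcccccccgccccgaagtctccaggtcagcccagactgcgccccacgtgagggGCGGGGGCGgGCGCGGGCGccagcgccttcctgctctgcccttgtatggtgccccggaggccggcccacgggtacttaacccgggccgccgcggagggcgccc
JUN: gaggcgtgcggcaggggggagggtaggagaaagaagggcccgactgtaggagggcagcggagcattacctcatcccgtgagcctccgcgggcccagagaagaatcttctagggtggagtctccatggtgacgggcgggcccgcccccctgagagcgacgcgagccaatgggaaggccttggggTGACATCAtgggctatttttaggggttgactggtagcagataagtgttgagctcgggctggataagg

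In all, 6 motifs were searched on both strands: the serum response element (CArG box), the cAMP response element core TGACGT, the longer cAMP response or JUN-type site TGACNTCA, the AP-1 site TGANTCA, the EGR1 site GCGNGGGCG and the TATA box TATAAA. The shorter TGACGT can lie inside a TGACNTCA and would then count for both. Across all 35116 promoter windows of the same length, 1.16% held a CArG box, 7.10% TGACGT, 6.87% TGACNTCA, 6.57% TGANTCA, 8.41% GCGNGGGCG and 10.7% TATAAA. The EGR1 window held 2 CArG boxes, CCATATTAGG and CCATATATGG, which start 105 and 83 bases before the start site. It also held 2 matches to TGACGT and 1 to GCGNGGGCG. The DUSP2 window held 2 matches to the EGR1 site, 103 and 93 bases before the start. The FOS window held TGACGT and TATAAA, the JUNB window TATAAA and the JUN window TGACATCA, a match to TGACNTCA. The RefSeq table held windows for 7 of the 9 genes, and of the others FOSB had both TGACGT and TATAAA, while ATF3 had TGACATCA in 1 window and TATAAA in another. A match describes letters in a window and is not evidence of binding. Sites further upstream than the window were not searched. A motif without a match here, such as the CArG box in the FOS window, can therefore still be present in the promoter.

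The keratins KRT8, KRT18 and KRT19, EPCAM and CLDN4, markers of epithelium, stood above 4.61 on all 12 arrays. The mesenchymal markers VIM, ZEB1 and FN1 stood above it on the 4 MKN1 arrays alone. PECAM1 of endothelium and DCN of fibroblasts stood above it on 0 arrays, and CD14 of monocytes on 2 of the 4 MKN1 arrays and on 0 others. The Rhosin and JK136 arrays of AGS differed most from DMSO, with a standard deviation over all tested genes of 0.281 and 0.273 on the log2 scale, against 0.187 to 0.230 for the other pairs. All levels below are deposited log2 signals, and a log2 difference of 0.58 is 1.5-fold.

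**Figure D1:**
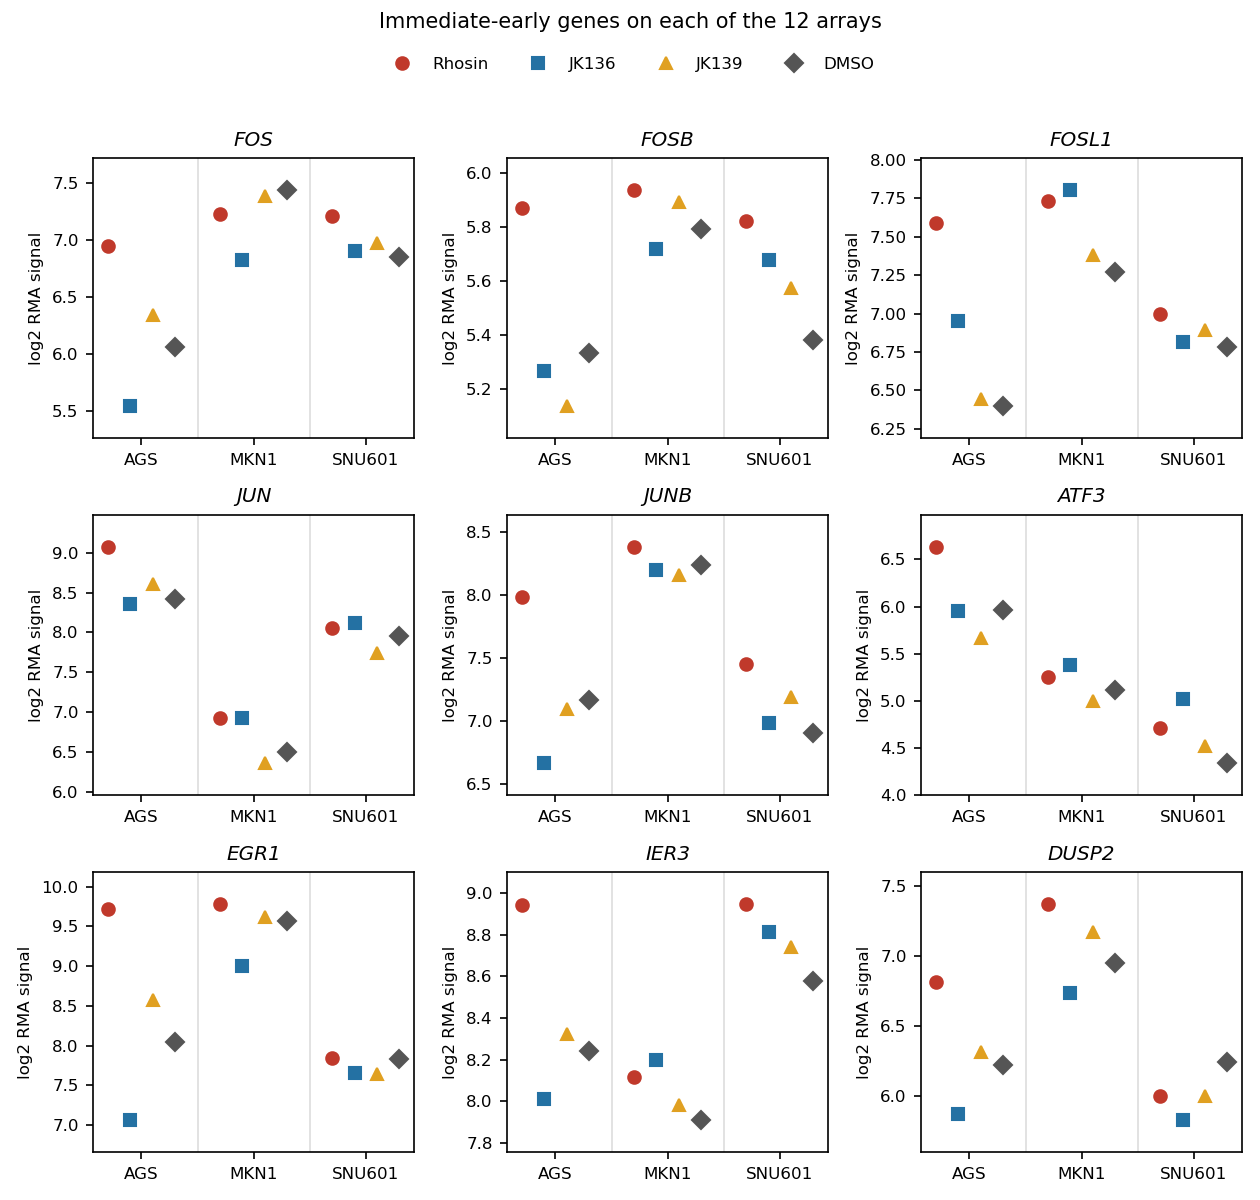
Deposited log2 signal (vertical axis, scaled per gene) of the 9 genes by cell line (horizontal axis), with 1 point per array and colour and shape for the treatment. In AGS the Rhosin array is the highest of the 4 for every gene, while in SNU601 the 4 arrays of EGR1 lie between 7.64 and 7.84.

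Rhosin against DMSO was compared first. All 9 genes were higher with Rhosin than with DMSO in AGS, by 0.54 to 1.67 on the log2 scale with a median of 0.70. Of these, 8 reached 1.5-fold there, where 1.99% of all tested genes did. In MKN1 8 of the 9 were higher, with a median of 0.21, and in SNU601 8 of the 9, with a median of 0.35. In either line 0 of the 9 were higher by 1.5-fold, where 71 of all 8930 tested genes were in MKN1 and 103 in SNU601. In all 3 lines 7 genes were higher, all but FOS and DUSP2, against 12% of all tested genes. Over the 3 lines limma called 0 of the 9 genes at an adjusted p under 0.05 and 0% of all tested genes, so none of the differences is reported as a change. At an unadjusted p under 0.05 stood 6 of the 9 genes and 560 of all 8930 (6.27%). The genes had been chosen with earlier results of these arrays known, so these counts describe them and are no independent test. Each array averages a whole culture, so fewer cells that express a gene and less RNA per cell cannot be told apart.

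EGR1, which is induced by growth factors and stress and regulates growth and its own inhibitors, showed the widest range (transcript cluster 16989736). In AGS it stood at 9.72 with Rhosin, 7.06 with JK136, 8.58 with JK139 and 8.05 with DMSO. In MKN1 its level was 9.78 with Rhosin, 9.0 with JK136, 9.62 with JK139 and 9.57 with DMSO. In SNU601 the values were 7.84, 7.65, 7.64 and 7.84 in the same order of treatments. The AGS cultures thus spanned a wide range, those of MKN1 differed mainly by a low JK136 array, and those of SNU601 hardly differed. With Rhosin EGR1 was higher than with DMSO by 1.67 in AGS, which is 3.19-fold, by 0.21 in MKN1 and by 0.01 in SNU601. In AGS this difference ranked 2 of 8930 genes from the top. The estimate over the 3 lines was 0.63 ± 0.33 (SE) with a limma adjusted p of 0.809, and without the AGS Rhosin array it was 0.11. A second EGR1 cluster, 17000463, with a lower mean of 4.82, gave 1.19 in AGS cells, 0.06 in MKN1 cells and −0.16 in SNU601 cells.

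FOS, the prototype AP-1 partner of JUN, stood in AGS at 6.95 with Rhosin, 5.55 with JK136, 6.34 with JK139 and 6.06 with DMSO. In MKN1 it stood at 7.23 with Rhosin, 6.83 with JK136, 7.39 with JK139 and 7.44 with DMSO. In SNU601 it stood at 7.21 with Rhosin, 6.91 with JK136, 6.97 with JK139 and 6.86 with DMSO. The Rhosin array was thus the highest of 4 in AGS and SNU601 but not in MKN1, where DMSO was highest. The differences of Rhosin from DMSO were 0.89 in AGS cells, −0.21 in MKN1 cells and 0.35 in SNU601 cells, with an estimate of 0.35 ± 0.19 and a limma adjusted p of 0.819. Without AGS the estimate was 0.07. These values are those of cluster 16786587, and a second FOS cluster with a mean of 4.92 did not follow it (Pearson's r 0.03 across the 12 line-centred arrays).

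JUNB, an AP-1 subunit that can restrain JUN, stood in AGS at 7.98 with Rhosin, 6.67 with JK136, 7.10 with JK139 and 7.17 with DMSO. In MKN1 the arrays of JUNB read 8.38 with Rhosin, 8.20 with JK136, 8.16 with JK139 and 8.24 with DMSO. The SNU601 arrays of JUNB read 7.46 with Rhosin, 6.98 with JK136, 7.19 with JK139 and 6.91 with DMSO. Rhosin gave the highest array in each line, and the MKN1 arrays lay close together. Rhosin minus DMSO gave 0.81 in AGS cells, 0.14 in MKN1 cells and 0.55 in SNU601 cells, with an estimate of 0.50 ± 0.17 and a limma adjusted p of 0.694.

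FOSL1 encodes the AP-1 subunit FRA-1, whose stability depends on ERK and which is linked to invasive growth in carcinoma. In AGS it stood at 7.59 with Rhosin, 6.95 with JK136, 6.44 with JK139 and 6.40 with DMSO. In MKN1 the arrays of FOSL1 read 7.73 with Rhosin, 7.80 with JK136, 7.38 with JK139 and 7.27 with DMSO. The SNU601 arrays of FOSL1 read 6.997 with Rhosin, 6.81 with JK136, 6.89 with JK139 and 6.79 with DMSO. DMSO was the lowest array in each line, and in AGS and MKN1 both Rhosin and JK136 lay above DMSO and JK139. Rhosin minus DMSO gave 1.19 in AGS cells, 0.47 in MKN1 cells and 0.21 in SNU601 cells, and the first ranked 5 of 8930 genes. The estimate was 0.62 ± 0.18 with a limma adjusted p of 0.563, the smallest among the 9 genes for this comparison.

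JUN, the main DNA-binding partner of FOS, stood in AGS at 9.07 with Rhosin, 8.36 with JK136, 8.61 with JK139 and 8.42 with DMSO. In MKN1 the arrays of JUN read 6.93 with Rhosin, 6.93 with JK136, 6.36 with JK139 and 6.501 with DMSO. The SNU601 arrays of JUN read 8.05 with Rhosin, 8.12 with JK136, 7.74 with JK139 and 7.96 with DMSO. The lines differed more than the treatments did, since 0 of the 4 arrays of MKN1 reached the lowest array of the other lines. Rhosin minus DMSO gave 0.65 in AGS cells, 0.43 in MKN1 cells and 0.10 in SNU601 cells, with an estimate of 0.39 ± 0.15 and a limma adjusted p of 0.708.

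ATF3, a factor induced by stress that pairs with JUN proteins, stood in AGS at 6.63 with Rhosin, 5.95 with JK136, 5.67 with JK139 and 5.96 with DMSO. In MKN1 it stood at 5.25 with Rhosin, 5.38 with JK136, 5.00 with JK139 and 5.12 with DMSO. In SNU601 it stood at 4.71 with Rhosin, 5.02 with JK136, 4.52 with JK139 and 4.34 with DMSO. In SNU601 the arrays of JK139 and DMSO lay under the filter level of 4.61, so differences there are between weak signals. The differences of Rhosin from DMSO were 0.67 in AGS cells, 0.13 in MKN1 cells and 0.37 in SNU601 cells, with an estimate of 0.39 ± 0.16 and a limma adjusted p of 0.750.

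FOSB, a FOS relative, had the smallest spread within lines of the 9 genes (SD 0.201 over the line-centred arrays). In AGS it stood at 5.87 with Rhosin, 5.27 with JK136, 5.14 with JK139 and 5.33 with DMSO, in MKN1 its 4 arrays lay between 5.72 and 5.94, and in SNU601 between 5.38 and 5.82. Rhosin gave the highest array in each line, and the differences from DMSO were 0.54, 0.14 and 0.44 in AGS, MKN1 and SNU601. The estimate was 0.37 ± 0.13 with a limma adjusted p of 0.694. It was 0.11 when the 2 FOSB clusters were averaged, since the second one did not follow the first (Pearson's r −0.08).

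IER3 stood in AGS at 8.94 with Rhosin, 8.01 with JK136, 8.33 with JK139 and 8.24 with DMSO. In MKN1 the arrays of IER3 read 8.12 with Rhosin, 8.20 with JK136, 7.98 with JK139 and 7.91 with DMSO. The SNU601 arrays of IER3 read 8.95 with Rhosin, 8.81 with JK136, 8.74 with JK139 and 8.58 with DMSO. DMSO was the lowest array in MKN1 and SNU601 and JK136 the lowest in AGS. Rhosin minus DMSO gave 0.70 in AGS cells, 0.21 in MKN1 cells and 0.37 in SNU601 cells, with an estimate of 0.43 ± 0.15 and a limma adjusted p of 0.708. IER3 had 11 clusters with 4 distinct sets of values, and each set had a positive difference of Rhosin from DMSO in AGS, the lowest being 0.40. That lowest set, shared by 5 clusters with a mean of 5.27, had −0.22 in MKN1 and 0.05 in SNU601, so the sign for IER3 in MKN1 depends on the cluster.

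DUSP2 stood in AGS at 6.81 with Rhosin, 5.87 with JK136, 6.31 with JK139 and 6.22 with DMSO. In MKN1 it stood at 7.37 with Rhosin, 6.74 with JK136, 7.17 with JK139 and 6.95 with DMSO. In SNU601 it stood at 5.998 with Rhosin, 5.83 with JK136, 6.001 with JK139 and 6.24 with DMSO. JK136 gave the lowest array in each line, and Rhosin the highest in AGS and MKN1. The differences of Rhosin from DMSO were 0.59 in AGS cells, 0.42 in MKN1 cells and −0.24 in SNU601 cells, with an estimate of 0.26 ± 0.14 and a limma adjusted p of 0.817.

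Over the 9 genes the median of the estimates for Rhosin against DMSO was 0.39, beside −0.02 over all tested genes. Without the AGS Rhosin array the median was 0.23 and without all AGS arrays 0.26, and all 9 estimates were positive in both cases. The size of the shift therefore moved by over 1.5 times with 1 array, while the sign of each estimate did not.

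**Figure D2:**
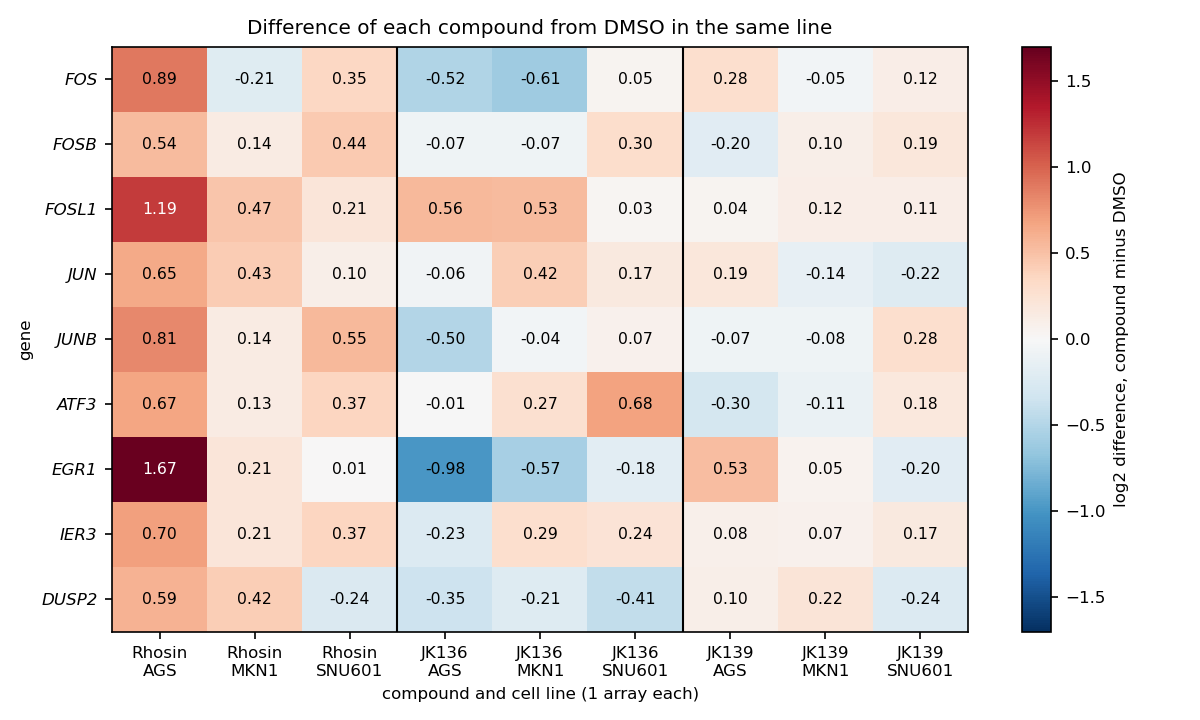
Log2 difference of each compound from DMSO in the same line for the 9 genes (rows) in 9 pairs of arrays (columns), with red for higher and blue for lower with the compound. The Rhosin column of AGS is positive in all 9 genes, from 0.54 to 1.67, and the JK139 columns lie between −0.30 and 0.53.

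JK136 against DMSO showed no common direction. In AGS 8 of the 9 genes were lower with JK136 than with DMSO, with a median of −0.23, while in MKN1 5 were lower (median −0.04) and in SNU601 2 (median 0.07). EGR1 was lower by 0.98 in AGS cells, 0.57 in MKN1 cells and 0.18 in SNU601 cells (differences −0.98, −0.57 and −0.18), and DUSP2 differed by −0.35, −0.21 and −0.41 in these lines. FOS differed by −0.52 in AGS cells, −0.61 in MKN1 cells and 0.05 in SNU601 cells, and JUNB by −0.50, −0.04 and 0.07. FOSL1 ran the other way, with 0.56, 0.53 and 0.03, and was the single gene higher in all 3 lines, where 10.6% of all tested genes were. In AGS EGR1 alone was lower by 1.5-fold or more, where 2.34% of all tested genes were, and its difference ranked 27 of 8930 from the bottom.

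ATF3 differed between JK136 and DMSO by −0.01 in AGS cells, 0.27 in MKN1 cells and 0.68 in SNU601 cells. JUN differed by −0.06, 0.42 and 0.17, IER3 by −0.23, 0.29 and 0.24, and FOSB by −0.07, −0.07 and 0.30. FOSL1, JUN and ATF3 thus had an estimate above 0.1, while EGR1, FOS, DUSP2 and JUNB had one below −0.1. The estimates were −0.58 ± 0.33 for EGR1, −0.36 ± 0.19 for FOS, −0.33 ± 0.14 for DUSP2, −0.16 ± 0.17 for JUNB, 0.37 ± 0.18 for FOSL1 and 0.31 ± 0.16 for ATF3. Limma called 0 of the 9 genes and 0% of all tested genes, with adjusted p between 0.902 and 0.978 for the 9. DUSP2 alone had an unadjusted p under 0.05, as did 469 of all 8930 genes. Without the AGS JK136 array the estimate of EGR1 was −0.13, that of FOS −0.16 and that of JUNB 0.05, opposite in sign.

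JK139 lay closer to DMSO. The 9 genes differed by −0.30 to 0.53 in AGS, by −0.14 to 0.22 in MKN1 and by −0.24 to 0.28 in SNU601. EGR1 in AGS, at 0.53, was the highest, and ATF3 in AGS, at −0.30, the lowest. FOSL1 and IER3 were higher in all 3 lines by 0.04 to 0.17, where 10.1% of all tested genes were higher in all lines. The estimates lay between −0.08 and 0.13, with a median of 0.04 beside −0.01 over all tested genes. Without the AGS DMSO array the median was −0.028 and 4 of the 9 estimates were positive, against 7 of 9 with all arrays. The 95% confidence intervals reached from −0.60 to 0.86, both for EGR1. Limma called 0 of the 9 genes and 0% of all tested genes, and at an unadjusted p under 0.05 stood 0 of the 9 and 218 of all 8930. An interval of that width does not show that JK139 left these genes at the DMSO level. The 3 comparisons with DMSO share the same DMSO arrays, so their values for a line are not independent of each other.

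**Figure D3:**
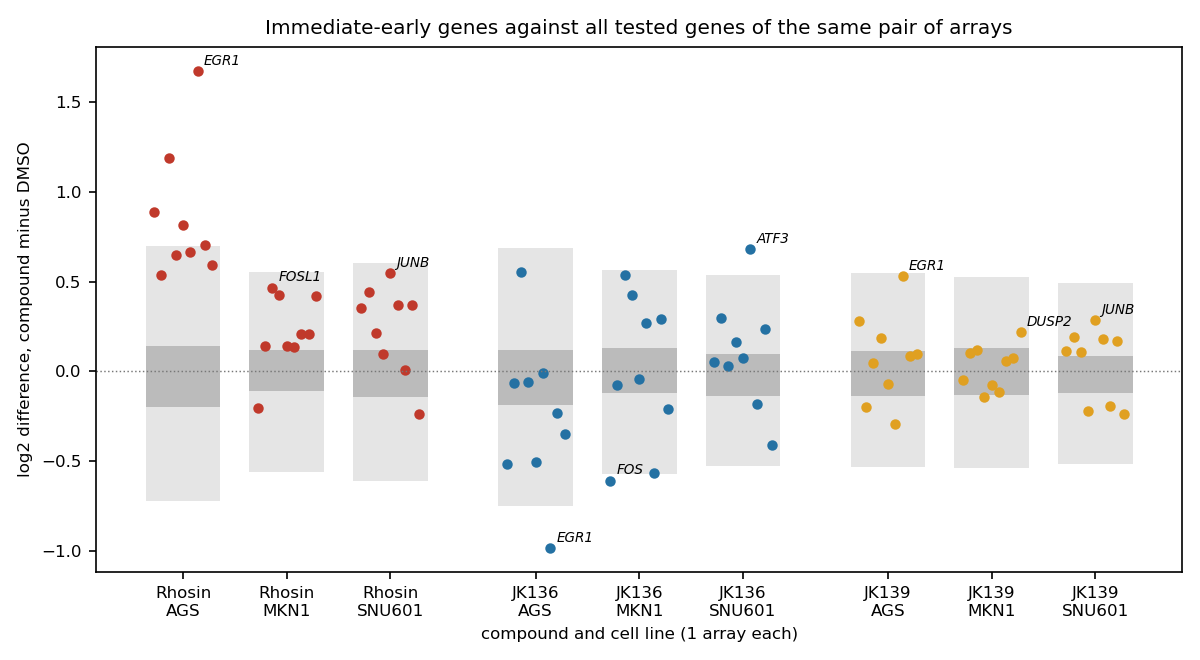
Log2 difference of each compound from DMSO (vertical axis) for each compound and line (horizontal axis), with a point per gene, light boxes from the 1st to the 99th percentile of all 8930 tested genes of the same pair of arrays and dark boxes from the 25th to the 75th percentile. With Rhosin in AGS 5 of the 9 genes lie above the 99th percentile of 0.70, and with JK136 EGR1 in AGS and FOS in MKN1 lie below the 1st and ATF3 in SNU601 above the 99th.

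JK136 was also set directly against Rhosin. The labels do not say whether both were used at matched doses and times, so the values stand side by side. All 9 estimates were lower with JK136 than with Rhosin, with a median of −0.33 beside −0.01 over all tested genes. In AGS all 9 genes were lower by 1.5-fold or more, where 3.95% of all tested genes were. With the clusters used, FOS, FOSB, JUNB, EGR1 and DUSP2 were lower in all 3 lines, 5 of the 9, against 14.6% of all tested genes. Limma called 0 of the 9 genes and 0% of all tested genes, while 6 of the 9 and 812 of all 8930 (9.09%) had an unadjusted p under 0.05.

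EGR1 had the largest difference between JK136 and Rhosin, −2.66 in AGS cells, −0.78 in MKN1 cells and −0.19 in SNU601 cells. In AGS the level with JK136 was lower 6.31-fold. The estimate was −1.21 ± 0.33 with a limma adjusted p of 0.417. It was −0.68 without the AGS Rhosin array, −0.76 without the AGS JK136 array and −0.48 without all AGS arrays. DUSP2 differed by −0.94, −0.63 and −0.17, with an estimate of −0.58 ± 0.14 and an adjusted p of 0.353 with limma, the smallest of the 9. FOS differed by −1.41, −0.40 and −0.30 (estimate −0.70 ± 0.19), and JUNB by −1.32, −0.18 and −0.48 (estimate −0.66 ± 0.17). In the clusters used for these 4 genes AGS gave the largest difference of the 3 lines, and the lines shared the direction. The second EGR1 cluster gave −1.575 in AGS, −0.85 in MKN1 and 0.12 in SNU601, so its sign differed in SNU601. The second FOS cluster gave 0.07, −0.0036 and 0.13 in these lines. With the clusters of FOS averaged, its estimate was −0.32. FOSB had an estimate of −0.32 ± 0.13, IER3 of −0.33 ± 0.15, FOSL1 of −0.25 ± 0.18, JUN of −0.21 ± 0.15 and ATF3 of −0.08 ± 0.16. For FOSL1, JUN, ATF3 and IER3 at least 1 line had the opposite sign, such as ATF3 with −0.67 in AGS and 0.31 in SNU601. Without the AGS Rhosin array the median of the 9 estimates was −0.18 and 2 of them, FOSL1 and ATF3, were positive, and without all AGS arrays it was −0.18 with JUN and ATF3 positive.

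**Figure D4:**
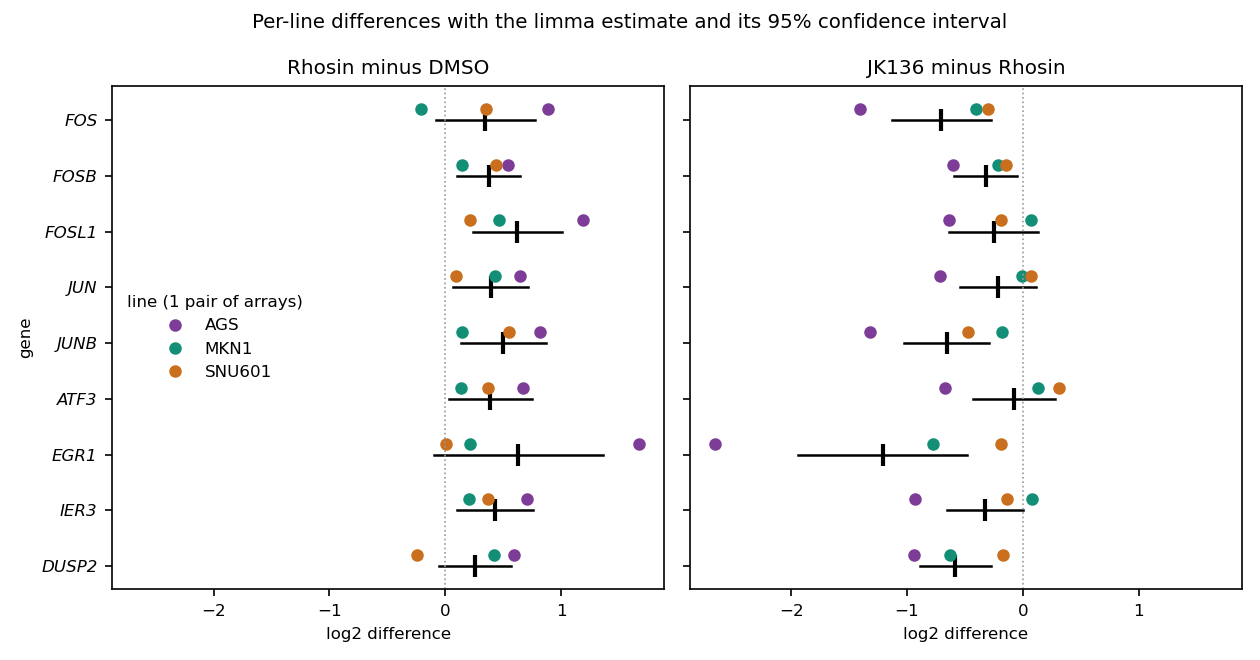
Log2 differences of Rhosin from DMSO (left) and of JK136 from Rhosin (right) for the 9 genes (rows), with a coloured point per line, a black tick for the limma estimate and a bar for its 95% confidence interval, not adjusted over genes. In the right panel every AGS point lies left of 0, with EGR1 at −2.66.

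In JK139 against Rhosin all 9 estimates were again lower with the JK compound, from −0.53 to −0.23 with a median of −0.45, beside 0.0018 over all tested genes. All but FOS and DUSP2, 7 of the 9 genes, were lower in all 3 lines, against 14.4% of all tested genes. In AGS 7 of the 9 were lower by 1.5-fold or more, where 2.45% of all tested genes were. FOSL1 and EGR1 differed most there, by −1.15 each, which is 2.21-fold. Limma called 0 of the 9 genes and 0% of all tested genes, with 5 of the 9 and 663 of all 8930 at an unadjusted p under 0.05. The estimates were −0.53 ± 0.18 for FOSL1, −0.47 ± 0.16 for ATF3, −0.45 ± 0.15 for JUN and −0.50 ± 0.33 for EGR1. Without the AGS Rhosin array the median was −0.20 and the estimates of FOS and EGR1 were positive, at 0.04 and 0.02. All comparisons with Rhosin share its 3 arrays, so their values are not independent of each other.

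In JK139 against JK136 the estimates had no common direction. EGR1 differed by 1.51 in AGS, which is 2.85-fold, by 0.62 in MKN1 and by −0.01 in SNU601, with an estimate of 0.71 ± 0.33. FOS differed by 0.80, 0.56 and 0.06 (estimate 0.47 ± 0.19), and DUSP2 by 0.45, 0.43 and 0.18 (estimate 0.35 ± 0.14). ATF3 was lower with JK139 in all 3 lines, by −0.29, −0.38 and −0.50 (estimate −0.39 ± 0.16). Over the 9 genes 5 estimates were positive and 4 negative, with a median of 0.009 beside 0.005 over all tested genes. Without the AGS JK136 array the estimate of EGR1 was 0.26. Limma called 0 of the 9 genes and 0% of all tested genes, and at an unadjusted p under 0.05 stood FOS, DUSP2 and ATF3 and 494 of all 8930. The 95% confidence interval of the difference in EGR1 ran from −0.02 to 1.44, so it holds both values near 0 and large ones.

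An F test of limma on the line by treatment interaction, over all compounds, asked whether the lines responded unequally. It called 0 of the 9 genes and 0% of all tested genes. At an unadjusted p under 0.05 stood 0 of the 9 and 274 of all 8930, and the smallest unadjusted p among the 9 was 0.248, that of DUSP2. The error of this test is the spread between the compounds of a line. For EGR1 in AGS the compounds ran in opposite directions, with 1.67 for Rhosin and −0.98 for JK136. Such differences offset each other in the mean and add to the error, so the test cannot show whether the lines differed for a single compound. The larger values in AGS are descriptions of single arrays. Whether they differ from those of the other lines was not tested for any single compound.

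The lines were compared over all 4 treatments, with means below given over the 4 arrays of a line (SD, n = 4) and therefore including the compounds. On single treatments some lines lay close, such as MKN1 and AGS for EGR1 with Rhosin, at 9.78 and 9.72. JUN averaged 7.97 ± 0.17 in SNU601, 6.68 ± 0.29 in MKN1 and 8.61 ± 0.32 in AGS, and with DMSO it had the same order, 7.96, 6.501 and 8.42. All 3 pairs of lines differed with limma, by −1.93 for MKN1 against AGS (adjusted p 8.11e-08), −0.64 for SNU601 against AGS (adjusted p 0.00117) and 1.29 for SNU601 against MKN1 (adjusted p 2.92e-06). ATF3 averaged 4.65 ± 0.29 in SNU601, 5.19 ± 0.17 in MKN1 and 6.05 ± 0.41 in AGS. Its 3 pairs differed by −0.86 (MKN1 against AGS), −1.41 (SNU601 against AGS) and −0.54 (SNU601 against MKN1). JUN and ATF3 were thus highest in AGS, and their orders below it differ.

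EGR1 averaged 7.74 ± 0.11 in SNU601, 9.49 ± 0.34 in MKN1 and 8.35 ± 1.11 in AGS, and with DMSO it stood at 7.84, 9.57 and 8.05. MKN1 was higher than AGS by 1.14 ± 0.29 with a limma adjusted p of 0.00406, and SNU601 lower than MKN1 by a difference of −1.75 ± 0.29 with an adjusted p of 0.000199. SNU601 and AGS were not called apart, with −0.61 ± 0.29 and an adjusted p of 0.0981, although they were without the AGS JK136 array, with −0.94 and an adjusted p of 0.00809, and without the SNU601 JK136 array, with −0.88 and 0.0254. JUNB averaged 7.14 ± 0.25 in SNU601, 8.24 ± 0.10 in MKN1 and 7.23 ± 0.55 in AGS. DUSP2 averaged 6.02 ± 0.17 in SNU601, 7.05 ± 0.27 in MKN1 and 6.30 ± 0.39 in AGS. FOSL1 averaged 6.87 ± 0.10 in SNU601, 7.55 ± 0.26 in MKN1 and 6.85 ± 0.56 in AGS. In EGR1, JUNB, DUSP2 and FOSL1 alike MKN1 was called above both other lines, which were not called apart. DUSP2 in SNU601 against AGS had −0.29 with a limma adjusted p of 0.0691, and without the SNU601 DMSO array −0.39 with 0.0236.

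FOS averaged 6.99 ± 0.16 in SNU601, 7.22 ± 0.28 in MKN1 and 6.23 ± 0.59 in AGS. MKN1 and SNU601 were both called above AGS, by 0.996 and 0.76, and were not called apart from each other (adjusted p 0.243). FOSB averaged 5.61 ± 0.19 in SNU601, 5.83 ± 0.10 in MKN1 and 5.40 ± 0.32 in AGS, and MKN1 against AGS, with 0.43, was the single pair called. Its call was lost when the 2 FOSB clusters were averaged (0.15, adjusted p 0.163). With the Rhosin array of AGS left out, FOSB was called between SNU601 and AGS as well (0.32, adjusted p 0.0228), and with that of MKN1 left out between SNU601 and MKN1 (−0.30, adjusted p 0.0399). IER3 averaged 8.77 ± 0.15 in SNU601, 8.05 ± 0.13 in MKN1 and 8.38 ± 0.40 in AGS, and all 3 pairs were called. Its call of MKN1 against AGS (−0.33, adjusted p 0.0412) did not hold once the Rhosin array of AGS was left out (−0.18, adjusted p 0.172), and that of SNU601 against AGS (0.39, adjusted p 0.0243) without the AGS JK136 array (0.23, adjusted p 0.0895). The first was lost too without the AGS or MKN1 array of JK139 or DMSO, the MKN1 array of Rhosin, or the SNU601 array of JK139 or DMSO, with adjusted p between 0.0525 and 0.160. The second was lost too without the AGS array of JK139 or DMSO or the SNU601 array of JK136 or JK139, with adjusted p between 0.0503 and 0.0825.

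In all, limma called 9 of the 9 genes between MKN1 and AGS, 6 higher and 3 lower in MKN1, where 66.3% of all tested genes were called. Between SNU601 and AGS it called 4 of the 9, FOS and IER3 higher and JUN and ATF3 lower in SNU601, where 52.7% of all tested genes were called. Between SNU601 and MKN1 it called 7 of the 9, JUN and IER3 higher and the other 5 lower in SNU601, where 63.4% of all tested genes were called. The shares of these genes called therefore stand beside a background of more than every second gene, and 4 of 9 lies below it. The line comparisons rest on 4 arrays a line of which each had another treatment, and no second culture of a treatment shows how far basal levels vary.

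After each gene was centred in each line, all 36 pairs of the 9 genes had a positive Pearson's r over the 12 arrays, with a median of 0.70. Of all pairs of tested genes 50.6% had a positive r, and the median was 0.006. FOS and EGR1 were most alike (r 0.945), followed by JUNB and IER3 (0.917) and EGR1 and DUSP2 (0.894). DUSP2 and ATF3 were least alike (0.179), and FOS and FOSL1 had 0.281. EGR1, FOS, DUSP2 and JUNB had r of 0.706 or more with each other, and ATF3, FOSL1, JUN and IER3 had 0.70 or more with each other. These are not separate groups. IER3 had 0.917 with JUNB, 0.772 with EGR1, 0.715 with FOS and 0.569 with DUSP2, and FOSB had 0.838 with JUNB and 0.789 with ATF3. The points share the lines' means, which were removed, and the AGS Rhosin array, which was the highest AGS array for each gene, so these values are descriptions of 12 arrays and carry no test.

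**Figure D5:**
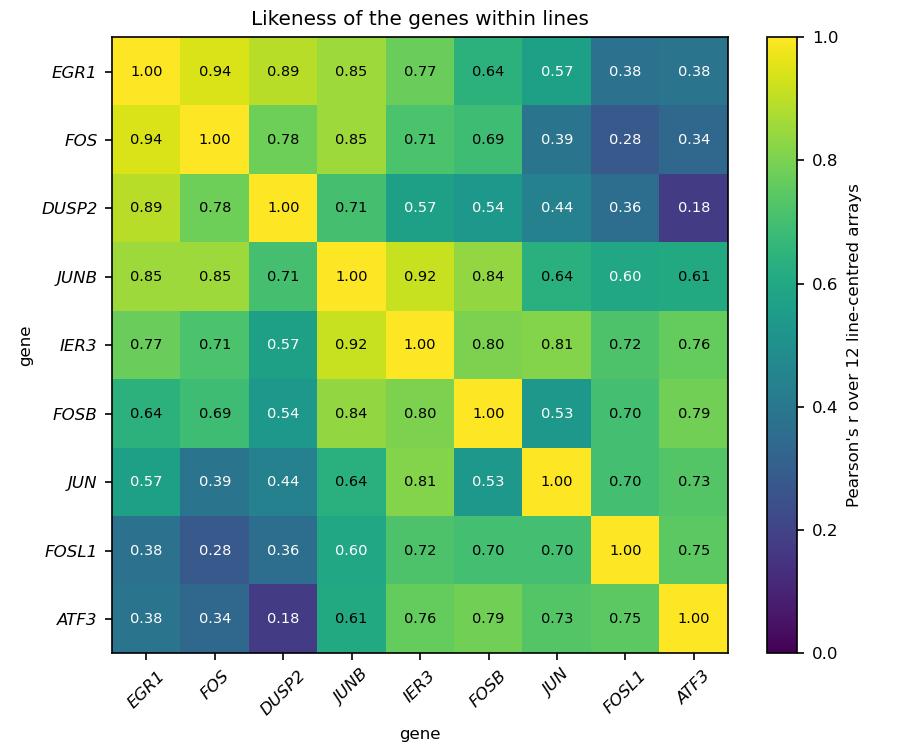
Pearson's r between each pair of the 9 genes (rows and columns) over 12 arrays centred within each line, with colour from 0 to 1. EGR1, FOS, DUSP2 and JUNB, at the upper left, have r of 0.706 or more with each other. IER3 has 0.92 with JUNB, and DUSP2 with ATF3 is lowest at 0.18.

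Among all 8930 tested genes the patterns most like EGR1 were those of SOS2, with r 0.967, FOCAD with 0.963 and FOS with 0.945. For FOS they were EGR1, CIDEB and PYCARD, with r between 0.925 and 0.945. Those most like JUNB were MARF1, RFFL and R3HDM4 (0.943 to 0.959), and for DUSP2 they were PRR11, ARMC10 and RAD52 (0.925 to 0.940). FOSL1 was most like NDRG1 (0.975) and then EHD4 and FXYD4 (0.916 each). JUN was most like EXOC3, ZNF805 and WASHC1 (0.883 to 0.930). ATF3 was most like ARRDC3, EGFR and TRIM25 (0.898 to 0.944). IER3 was most like NECAP1, SIAH1 and SEC61A1 (0.957 to 0.967), and FOSB like LYST, GPSM1 and FEM1B (0.927 to 0.946). The 9 genes were mostly not each other's closest. Among all tested genes, the nearest of the 9 ranked 1 for FOS, 3 for EGR1, 8 for DUSP2, 10 for IER3, 13 for JUNB, 39 for JUN, 41 for FOSB, 58 for ATF3 and 142 for FOSL1. Most of the genes named as most alike varied less than the gene they resemble, such as SOS2, with a spread of 0.152 within lines against 0.608 for EGR1. Over all pairs of tested genes the 99th percentile of r was 0.755. The genes named have the highest r of all tested genes over few arrays, so high values would be found by selection alone. Whether they are linked to the genes they resemble was not tested.

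Other genes of the same pathways were taken from 5 lists, which were chosen with earlier results of these data known. The counts and medians below describe them and are no independent test. Over all tested genes the median estimate for Rhosin against DMSO was −0.02, and the share with a positive estimate was not counted. Of 9 other AP-1 subunits 5 were measured above the filter, and 0 were called for any compound. With Rhosin against DMSO all 5 had a positive estimate, with a median of 0.06. MAFF, a small MAF protein, had 0.42 ± 0.16 with 0.66 in AGS cells, −0.01 in MKN1 cells and 0.61 in SNU601 cells, and FOSL2, which encodes FRA-2, 0.25 ± 0.09 with 0.44, 0.06 and 0.26. JDP2 had 0.06 ± 0.10 and JUND, which is expressed constitutively in most cells, 0.03 ± 0.14. Of the 4 subunits named here, MAFF lay above FOSB (0.37) and the other three below it.

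Of 15 other factors of the immediate-early class 9 were tested, and 8 had a positive estimate with Rhosin, with a median of 0.25 and medians of 0.62 in AGS cells, −0.07 in MKN1 cells and 0.14 in SNU601 cells. KLF2, a factor controlled by flow and MAP kinase signals in endothelium, had 0.46 ± 0.22 with 0.91, 0.16 and 0.31 in these lines, and CSRNP1 had 0.36 ± 0.12 with 0.63, 0.19 and 0.27. EGR3, a relative of EGR1, had 0.29 ± 0.16, and IER2 had 0.25 ± 0.25. IER2 with JK136 differed from DMSO by −0.96 in AGS, beside −0.98 for EGR1 there. None of the 9 was called for any compound.

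Of 22 feedback regulators, which include phosphatases and inhibitors of the MAP kinases, 10 were tested and 7 had a positive estimate with Rhosin, with a median of 0.21. SPRY4, an inhibitor of receptor kinase signalling, had 0.37 ± 0.16, DUSP1, a phosphatase of p38 and JNK, 0.26 ± 0.26 with 1.04 in AGS and −0.37 in MKN1, and DUSP8 0.26 ± 0.09. DUSP10 ran the other way with −0.28 ± 0.20, and in AGS it had −0.48 with Rhosin and 0.89 with JK136. Of 19 genes known as targets of AP-1 or EGR1, 10 were tested. With Rhosin 6 had a positive and 4 a negative estimate, with a median of 0.10. The medians by line were 0.36 in AGS, 0.01 in MKN1 and −0.10 in SNU601. MMP1, a collagenase with AP-1 sites, had 1.17 ± 0.45 with 2.59 in AGS cells, −0.29 in MKN1 cells and 1.21 in SNU601 cells. The cytokine gene LIF had 0.50 ± 0.12, and the EGF receptor ligands EREG 0.43 ± 0.15 and HBEGF 0.36 ± 0.29, the last with 1.11 in AGS and −0.02 and −0.01 in MKN1 and SNU601. Of 20 upstream regulators 9 were tested, with a median of 0.07. The largest estimates were NAB1, a corepressor of EGR1, with 0.15 ± 0.12, SRF with 0.12 ± 0.12, its cofactor MRTFB with 0.10 ± 0.11 and the kinase gene MAPK3 with 0.08 ± 0.09. In these 3 lists as well 0 genes were called for any compound, and the limma adjusted p of the genes named from the 5 lists lay between 0.532 and 0.980 for Rhosin against DMSO.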

How the data were processed

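Per the submitters' processing notes, the deposited values came from Affymetrix Expression Console and RMA (versions not given in the sources used here). RMA corrects background, quantile-normalizes the arrays and summarises probes, and the deposited unit is the log2 signal per transcript cluster. Quantile normalization can hide shifts shared by most genes, and precision is limited by having 12 arrays. Of 53617 clusters 16098 (30.0%) had 1 gene symbol here and 14884 symbols remained after the cluster with the highest mean was kept. Genes with a mean below the 40th percentile (4.61) were left out, which left 8930.

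Differences were fitted with limma 3.58.1 in R 4.3.3 (lmFit and eBayes) over all 12 arrays with treatment and line as fixed terms, which left 6 residual degrees of freedom, with Benjamini-Hochberg adjustment over 8930 genes. The line is the block for comparisons of treatments, and the treatment is the block for comparisons of lines. The p-values rest on the spread left after both terms were removed. No combination of line and treatment had a replicate array. Unequal responses of the lines and variation between cultures therefore cannot be told apart in this spread. The same code was tested on simulated data. The members and the gene lists were chosen with earlier results of these data known. The genes named are the 9 members and the 3 genes most like each by Pearson's r of line-centred values. Of each list up to 4 genes are named, those with the largest absolute estimate for Rhosin against DMSO. Alternatives covered normalization, the filter, the choice of cluster, the prior, array weights, the block, and leaving out arrays, lines or treatments. Promoters are from RefSeq (GRCh38.p14).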

Additional observations from a re-analysis of the deposited data

Results flagged for a closer look

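FOS had differences from DMSO of opposite sign in MKN1 and SNU601 when the 3 compounds were averaged. Each of its 3 differences from DMSO was negative in MKN1, with a mean of −0.29, and each was positive in SNU601, with a mean of 0.17. The mean in MKN1 minus that in SNU601 was −0.46 on the log2 scale. This pair of lines was not tested by itself. The F test of limma on whether the 3 lines responded unequally over all compounds gave FOS an unadjusted p of 0.398 and an adjusted p of 1. The 3 differences of a line share 1 DMSO array, so all 3 have the same sign whenever that array is the highest or lowest of the line. The differences nearest to no change were −0.05 for JK139 in MKN1 and 0.05 for JK136 in SNU601. How many of all tested genes have such a pattern was not counted.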

How the results depend on the processing

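For Rhosin against DMSO the estimates of the 9 genes kept their sign in 232 of 232 refits. Many of these refits could not turn a sign. A change of filter, prior or block leaves the estimate as it was, and so does leaving out an array of a treatment not compared. This holds for the counts of turned signs in the other compound comparisons below as well. Of all tested genes, limma called 1 instead of 0 for Rhosin against DMSO with a trended, robust prior. It called 1 instead of 0 for JK136 against DMSO with no filter or a filter at the 20th percentile. For JK136 against Rhosin it called 2 instead of 0 with the trended, robust prior, and 0 to 3 when arrays or lines were left out, the 3 without the MKN1 JK136 array. The replicate block was the line for compounds and the treatment for lines. Without it or with it as random effect, limma lost the call of IER3 in MKN1 against AGS (−0.33, adjusted p 0.0745 and 0.0707). It was the sole call among the 9 genes that these 2 settings changed. The call was lost too with no filter (limma adjusted p 0.067) or a filter at the 20th percentile (0.053). The same held for the mean of the IER3 clusters (0.197) and for only the 2 lines compared (0.0748). With the mean of its clusters IER3 also lost its limma call in SNU601 against AGS (0.30, adjusted p 0.0723). Signs turned in 24 of 232 refits for JK139 against DMSO, in 12 for JK139 against JK136, in 7 for JK136 against DMSO, in 6 for JK136 against Rhosin and in 2 for JK139 against Rhosin. FOSB in JK136 against DMSO had −0.067 with the mean of its clusters, ATF3 in JK136 against Rhosin 0.082 with array weights, and FOSL1 in SNU601 against AGS −0.0079 after a second quantile normalization. When arrays, lines or treatments were left out, the estimates for JK136 against DMSO ran from −0.071 to 0.12 for FOSB, −0.30 to 0.048 for JUNB and −0.041 to 0.30 for IER3. Those for JK136 against Rhosin ran from −0.41 to 0.011 for FOSL1, −0.36 to 0.033 for JUN and −0.27 to 0.22 for ATF3. Those for JK139 against Rhosin ran from −0.44 to 0.043 for FOS and −0.82 to 0.023 for EGR1, and those for SNU601 against AGS from −0.11 to 0.23 for FOSL1 and −0.25 to 0.081 for JUNB. With 1 array per line and treatment, no culture-to-culture error is known.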
